A study of Mus musculus with 111 samples.

Results

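The comparison described here is that of right gastrocnemius muscles of tenotomy-cohort mice with right gastrocnemius muscles of sham-operated mice, 2 days after surgery. The arrays were chosen by the group, leg and day in their labels, which gave 5 right legs of the tenotomy cohort and 3 sham legs, 8 of the 111 arrays of the series. All mice were male C57BL/6, and the design text gives an age of 8 weeks. The sources conflict on the treatment of the right legs. According to the design text the right Achilles tendon, which anchors the gastrocnemius to the heel, was cut, and the left leg of the same mouse was the untreated control, whereas the sample labels call the right legs control and the left legs tenotomy. They are therefore called right legs here, and neither reading is assumed. The sham mice had the Achilles tendon exposed and handled but not cut; their treatment entry is n/a, and their group comes from the title. Tenotomy mice were anaesthetised with ether and then ketamine-xylazine and moved freely in the cage afterwards; the labels do not give the anaesthesia of the sham mice. Right and sham legs came from different mice of separately numbered cohorts, so that cohort and group cannot be told apart in this comparison. Values of the left legs of the same 5 tenotomy-cohort mice, of 7 naive mice without any manipulation, and of the right and sham legs at days 7 and 14 (7 and 7, then 5 and 8 arrays) are given beside it.

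Each array measured 1 muscle of 1 mouse with 45101 probe sets, and the signal of a probe set is a brightness on a linear scale that has no absolute unit. Differences are on the scale of log2(signal + 3.98), which understates the change of dim genes, and a positive value means higher in right legs than in sham legs. The number of arrays, and above all the 3 sham arrays, limits the precision; the design text states 5 to 10 samples per group. The 8 arrays correlated with each other at 0.928 to 0.975 on the log2 scale, and no pair was identical. The 15 skeletal muscle markers were well represented in every array, with a summed signal of 117200 to 171000 in right legs and 198900 to 297000 in sham legs. The log2 ratio of the 3' to the 5' beta-actin probe set, often read as a sign of RNA integrity, was -0.50 to 0.23 in right legs and -1.34 to -1.24 in sham legs. The difference was 1.29 (exact two-sided permutation p = 0.0179, the smallest that 5 against 3 arrays allow; adjusted over 4 array measures 0.0714). The ratio was -0.9997 to -0.56 in left legs and -1.32 to -1.08 in naive legs. The same ratio for Gapdh was -0.31 to -0.21 in right and -0.19 to -0.14 in sham legs (difference -0.0794, exact permutation p = 0.0357, adjusted 0.0714). Neither ratio overlapped between right and sham legs, the actin ratio being higher and the Gapdh ratio lower in right legs. The ratios thus did not order the groups alike and do not show which group had the better RNA. The part of either in the differences between the groups was not tested.

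Muscle responds to injury and to loss of load through several cell types. Resident and blood-derived macrophages clear debris and release signals, fibroblasts lay down matrix, satellite cells (the stem cells of muscle) divide and fuse, and the fibres themselves change their contractile proteins and mitochondria and degrade protein through the ubiquitin-proteasome system and the lysosome. The gastrocnemius is a mixed muscle with mainly fast fibres, and slow fibres carry their own set of myosins, troponins and light chains.

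Right legs differed from sham legs in a large share of all genes. Of 16029 genes tested, 3134 were higher and 2479 lower in right legs (limma, adjusted p under 0.05), which is 35.0% in all, 19.6% higher and 15.5% lower. Among them 1136 were more than 1 higher and 408 more than 1 lower on the log2 scale. The signals of all 5 right legs lay above all 3 sham legs for 2845 genes (17.7%) and below them for 2310 genes (14.4%), together 32.2%. The median difference over all genes was 0.0411. The genes with the largest rises were Mpeg1, Chil3, Gpnmb, Lgals3, Cthrc1, Pirb, Cdk1, Ccr2, Mt2 and Postn, of which Mpeg1, Gpnmb, Lgals3 and Ccr2 are on the macrophage list, Cdk1 is a cell cycle kinase, Mt2 a metallothionein and Postn a matrix protein. The largest falls, with 1 probe set per gene, were those of Myl2, Myh7, Tpm3 (-0.72 when its probe sets were averaged), Tnnc1, Myl3, Tnnt1 and Tnni1, all on the slow fibre list, and of the water channel Aqp4, the purine receptor P2ry1 and the methyltransferase Gnmt.

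**Figure D1:**
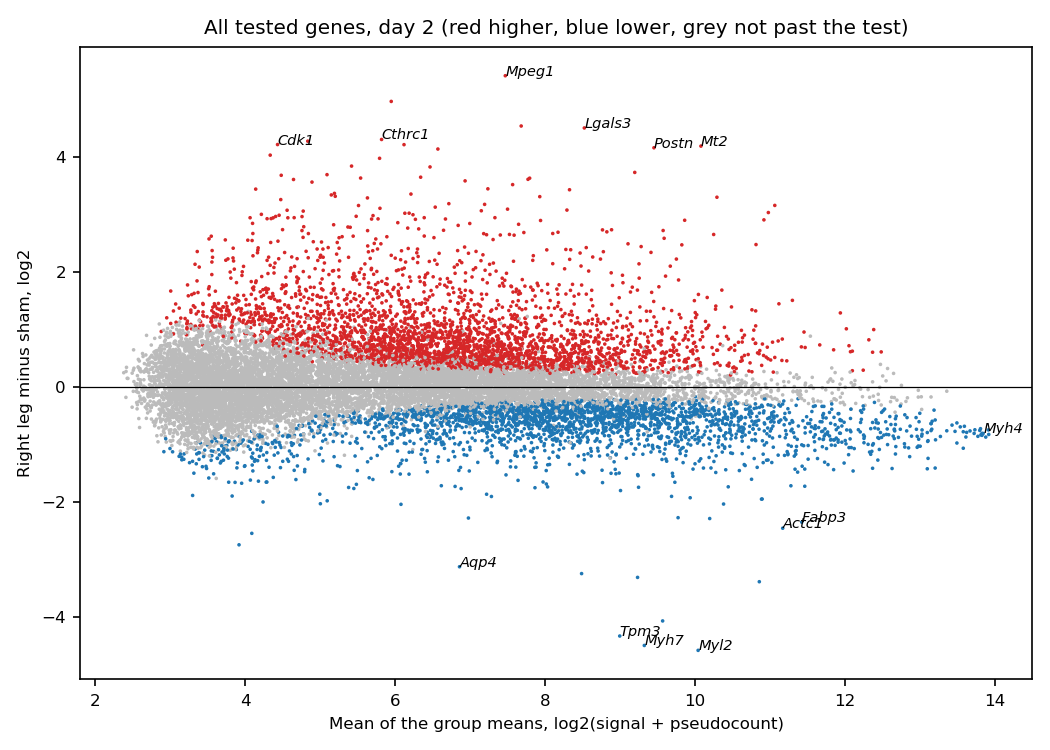
Each point is 1 of the 16029 tested genes, with the mean of the right and sham group means on the x axis and right leg minus sham on the y axis, both in log2(signal + pseudocount). The 3134 red genes are higher and the 2479 blue genes lower in right legs; Mpeg1 lies at the top (5.40) and Myl2 at the bottom (-4.58), while the brightest muscle transcripts on the right, such as Myh4 (-0.81, or -0.04 after quantile normalisation), form a narrow band below 0.

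Markers of macrophages, the phagocytes that enter damaged muscle, gave the largest median of the 40 lists. Of 26 macrophage markers tested, 23 were higher in right legs and 0 lower, with a median difference of 2.78 against 0.0411 over all genes. The groups did not overlap in 24 of the 26, and in 32.2% of all genes. In bulk muscle RNA, a change in the number of cells of a type and a change in RNA per cell cannot be told apart. Mpeg1, which encodes the pore-forming protein perforin-2 of phagocytes, had signals of 1429, 1019, 1126, 935 and 1308 in the 5 right legs and 13.4, 43.8 and 20.3 in the 3 sham legs. Every right leg was thus far above every sham leg, with a difference of 5.40 (SE 0.46, adjusted p = 5.87e-18) and a ratio of the mean signals of 45. Gpnmb, a membrane glycoprotein of lysosome-rich macrophages, was at 1059, 866, 845, 942 and 1255 in right and 43.6, 38.1 and 34.9 in sham legs, a difference of 4.53 (SE 0.29, adjusted p = 2.41e-25). Lgals3, the galectin-3 of activated macrophages, had signals of 1367 to 2241 against 54.4 to 95.6 (4.50, SE 0.38, adjusted p = 3.69e-18). The chemokine receptor Ccr2, which brings monocytes from the blood into tissue, was at 246, 332, 366, 203 and 363 in right and 14.1, 14.1 and 8.98 in sham legs, and rose by 4.21 (SE 0.38, adjusted p = 6.77e-17). The groups were far apart in each of these genes, and the spread within the right legs was small beside the gap. The lysosomal scavenger glycoprotein Cd68 was at 693 to 878 against 43.1 to 78.4 (3.62, SE 0.34, adjusted p = 4.67e-16). Lysozyme Lyz2 rose by 2.90, the growth factor receptor Csf1r by 2.47, the resident macrophage marker Adgre1 (F4/80) by 2.28, the mannose receptor Mrc1 by 2.22 and the haemoglobin scavenger receptor Cd163 by 1.68. The members that did not pass were Itgax (0.58), Trem2 (0.14) and Clec4e (-0.14), the latter below the 40th percentile of its array in all 8 arrays. Summed over the list, the signal was 16890 to 21690 in right legs, 1734 to 2919 in sham legs and 1181 to 2391 in left legs. Not on the list, Chil3, a chitinase-like protein of mouse myeloid cells, had signals of 446, 320.3, 369.6, 197 and 434 in right and 10.0, 14.2 and 1.35 in sham legs (4.96, SE 0.84, adjusted p = 6.35e-07), but reached 159.5 in 1 left leg. Pirb, an inhibitory receptor of myeloid cells, was at 76.8 to 171 in right legs and 0.935 to 5.17 in sham legs (4.27, SE 0.50, adjusted p = 7.15e-12).

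**Figure D2:**
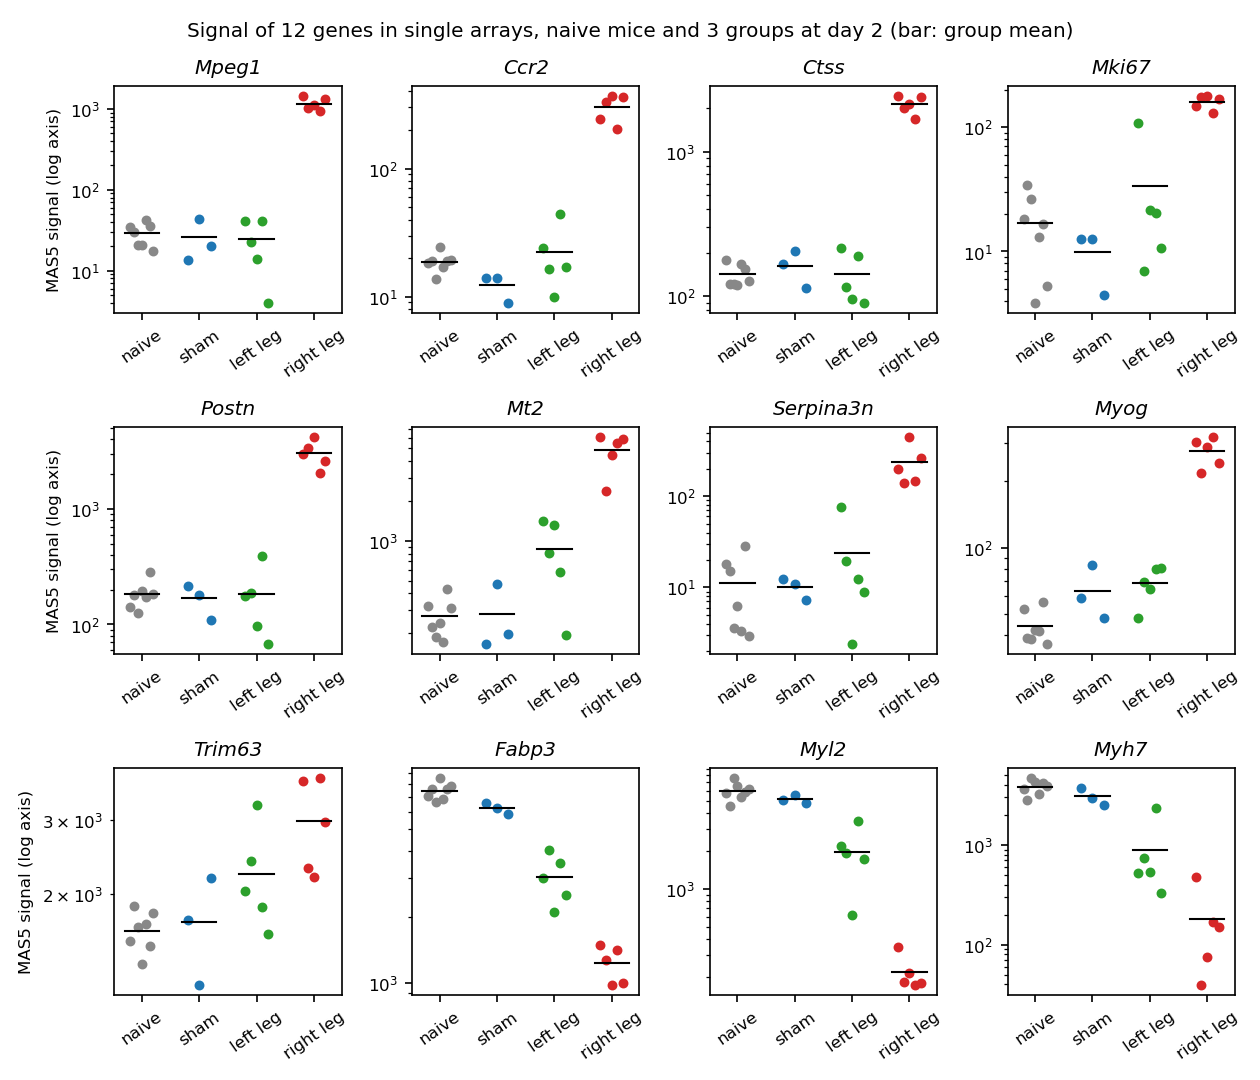
Each point is the signal of 1 array (log y axis) for 7 naive, 3 sham, 5 left and 5 right legs, the last 3 groups at day 2; bars are group means. For Mpeg1, Ccr2, Ctss, Mki67, Postn, Mt2, Serpina3n and Myog the 5 right legs lie above all other arrays shown, whereas for Fabp3 and Myl2 the left legs lie between right and sham legs without overlap, and the left legs overlap the right legs for Myh7 and Trim63.

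Fewer markers of other blood cells passed the test. Of 14 neutrophil markers 4 rose, with a median of 0.50, while 19.6% of all genes rose and 15.5% fell. Lcn2 (lipocalin-2, also made by other cells) rose by 3.56 (SE 0.81, adjusted p = 0.000175), the granulocyte growth factor receptor Csf3r by 2.60 (SE 0.51, adjusted p = 1.63e-05), Mmp8 by 1.45 and the decoy receptor Il1r2 by 1.20. The calprotectin genes S100a8 and S100a9, the most abundant neutrophil transcripts, did not pass. S100a8 was at 66.0, 43.1, 64.0, 24.3 and 148 in right and 14.8, 65.7 and 17.8 in sham legs (1.04, SE 1.09, adjusted p = 0.517), and S100a9 differed by 0.57 (SE 1.16, adjusted p = 0.761). Their ranges overlapped, and 1 left leg reached 1235 for S100a8. The granule genes Mpo, Elane, Ltf, Camp and Ngp stood between -0.71 and 0.51 and did not pass either. Of these, Elane was below the 40th percentile in all 3 sham and all 5 right arrays, and Camp and Ltf in 4 right arrays. Without sham replicate 1 the number of neutrophil markers that rose fell from 4 to 2, and Mmp8 had an adjusted p of 0.0521 there and of 0.109 without sham replicate 3. Of 12 lymphocyte markers the natural killer receptor Klrd1 rose by 1.29 (SE 0.34, adjusted p = 0.00126) and Cd4 fell by 1.13 (SE 0.42, adjusted p = 0.0273). Cd4 was dim, at 1.18, 1.93, 2.19, 0.837 and 1.68 in right and 11.7, 13.0 and 2.62 in sham legs, with an adjusted p of 0.137 without sham replicate 1 and 0.171 without sham replicate 2. The T cell receptor genes Cd3e and Cd3g and the B cell genes Cd79a, Cd79b and Ms4a1 did not pass. Cd3e, Cd3g and Cd79a were below the 40th percentile in all 3 sham and all 5 right arrays, and Ms4a1 in 4 right arrays. Genes this dim cannot show whether lymphocytes changed. The brightest member, Ighm, was at 165 to 249 in right and 167 to 213 in sham legs and did not pass (-0.03, limma adjusted p = 0.966). Cd8a (-0.20) did not pass either. Among 7 mast cell markers the protease Mcpt4 fell by 1.29 (SE 0.42, adjusted p = 0.0106; 0.131 without right replicate 1 and 0.0731 without sham replicate 2). In right replicate 1 its signal was 1.30 against 13.2 to 50.2 in the other right legs. No other member passed.

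Chemokines that attract monocytes were higher in right legs. Of 20 chemokines 11 rose and 0 fell, with a median of 1.16, while 19.6% of all genes rose and 15.5% fell. The largest rises were those of 3 ligands of Ccr2. Ccl12 was at 68.0, 85.5, 86.5, 49.7 and 98.7 in right and 2.58, 2.07 and 2.15 in sham legs (3.67, SE 0.62, adjusted p = 5.57e-07). Ccl7 was at 30.8 to 103 against 0.744 to 6.88 (2.98, SE 0.46, adjusted p = 6.24e-08), and Ccl2 at 40.4 to 101 against 4.11 to 16.6 (2.39, SE 0.54, adjusted p = 0.00017). Right and sham legs did not overlap in any of the 3, and the sham signals of Ccl12 and Ccl7 were below the 40th percentile in all 3 arrays. Ccl8, Ccl9, Ccl6 and the interferon-induced Cxcl10 rose by 2.32, 2.32, 2.25 and 2.33, while the neutrophil attractants Cxcl1 (-0.35) and Cxcl5 (0.42) did not pass. Of 22 cytokines, their receptors and acute-phase genes 11 rose and 0 fell (median 1.09). Serpina3n, a secreted protease inhibitor of the acute phase, was at 197, 138, 444, 145 and 260.4 in right and 12.5, 10.9 and 7.23 in sham legs, a difference of 3.97 (SE 0.67, adjusted p = 5.89e-07). Socs3, the feedback inhibitor induced by interleukin-6 type cytokines, rose by 2.91 (SE 0.43, adjusted p = 1.86e-08), their transcription factor Stat3 by 1.09, the receptors Il6ra and Osmr by 1.73 and 1.31, and oncostatin M (Osm) by 1.18. Il6 itself was dim, at 15.7, 11.4, 15.4, 10.3 and 11.3 in right and 9.95, 0.303 and 2.04 in sham legs (1.23, SE 0.48, adjusted p = 0.0368). Its adjusted p was 0.0937 with a pseudocount of 16 and reached 0.255 without sham replicate 2, with values over 0.05 also without sham replicate 3 and without right replicates 1 and 3. Tgfb1, a driver of matrix synthesis, rose by 2.32, whereas Il1b (0.26), Tnf (0.12) and Il10 (0.32) did not pass.

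Complement, antigen presentation and interferon genes rose together with them. Of 12 complement genes 9 rose and 0 fell (median 1.59), while 19.6% of all genes rose and 15.5% fell. The subunits of C1q, the recognition molecule of the classical pathway, had signals of 951 to 1477 against 105 to 253 for C1qa (2.69, SE 0.32, adjusted p = 1.66e-11) and 881 to 1236 against 113 to 228 for C1qb (2.73, SE 0.31, adjusted p = 1.42e-12), and C1qc rose by 2.35. C3ar1, the receptor of the C3a fragment, was at 206, 176, 144, 123 and 157 in right and 18.3, 10.3 and 17.5 in sham legs (3.10, SE 0.28, adjusted p = 5.39e-17), and the C5a receptor C5ar1 rose by 2.42. Of 16 antigen presentation genes 11 rose and 0 fell (median 1.02). The class II chains H2-Aa, H2-Eb1 and H2-Ab1 and their invariant chain Cd74 rose by 2.14, 2.05, 1.499 and 2.10; Cd74 was at 2150, 2020, 1778, 1347 and 1283 in right and 462, 411 and 312 in sham legs, with no overlap. The class I chains H2-D1 and H2-K1 rose by 1.35 and 0.98, but their light chain B2m stood at 0.01. Of 14 interferon response genes 10 rose and 0 fell (median 0.83), the right legs being spread widely. All right legs lay above all sham legs in 4 of the 14, and in 17.7% of all genes. The antiviral enzyme Oasl2 was at 157, 166, 85.9, 47.6 and 44.4 in right legs and 40.2, 40.4 and 20.5 in sham legs (1.32, SE 0.27, adjusted p = 2.14e-05), low in right replicates 4 and 5. Oas1a was at 223, 172, 172, 96.6 and 157 against 48.0, 45.3 and 28.4 (1.90, SE 0.29, adjusted p = 3.64e-08), and Mx1 rose by 1.54 (SE 0.40, adjusted p = 0.0012), with an adjusted p of 0.0652 without sham replicate 1. Among 21 integrins and adhesion receptors of entering cells 12 rose and 0 fell (median 0.70). The largest rises were those of the leukocyte integrin chains Itgb2 (2.91, SE 0.35, adjusted p = 1.59e-11) and Itgam (2.34, SE 0.34, adjusted p = 8.38e-09) and the selectin ligand Selplg (2.18, SE 0.29, adjusted p = 1.07e-09). The vessel-wall receptors Selp, Icam1 and Vcam1 rose by 1.59, 1.48 and 1.48. The summed macrophage signal given above was also higher in right than in sham legs, and its part in these rises was not tested.

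The genes of protein breakdown divided by system. Of 28 cathepsin and lysosome genes 24 rose and 0 fell, with a median of 1.24; 1 of them, Ctss, is also on the macrophage list. Ctss, the cathepsin of antigen-presenting cells, was at 2429, 2027, 2142, 1703 and 2421 in right and 166, 206 and 114 in sham legs (3.72, SE 0.29, adjusted p = 2.14e-20). The asparagine endopeptidase Lgmn had signals of 688 to 968 against 127 to 185 (2.42, SE 0.29, adjusted p = 9.64e-12), and Ctsh of 575 to 818 against 102 to 172 (2.38, SE 0.24, adjusted p = 7.65e-15). Ctsb and Ctsd, found in most cells, rose by 1.28 and 0.64. Ctsl, the cathepsin that rises in many kinds of muscle atrophy, was at 1572, 1607, 1992, 1442 and 1555 in right and 1345, 1391 and 1409 in sham legs and did not pass (0.23, SE 0.14, adjusted p = 0.193). Its other probe set had the opposite sign. It was lower in left legs than in sham legs (-0.49, SE 0.14, adjusted p = 0.0112).

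Of 34 subunits of the 26S proteasome 13 rose and 2 fell, with a median of 0.10, and all differences lay within 1 on the log2 scale; without right replicate 1, 4 fell. Psmd11, a lid subunit that helps assemble the complex, was at 2648, 2165, 1994, 2396 and 2469 in right and 1248, 1452 and 1434 in sham legs (0.76, SE 0.13, adjusted p = 6.12e-07; 4 of its 6 other probe sets had the same sign). The core subunit Psma7 and the base subunit Psmd3 rose by 0.69 (SE 0.12, adjusted p = 5.79e-07) and 0.69 (SE 0.12, adjusted p = 5.17e-07). Of 21 muscle ubiquitin ligases and their adaptors 4 rose and 6 fell (median -0.23), while 19.6% of all genes rose and 15.5% fell. Without sham replicate 2, 2 rose. Trim63 (MuRF1), the ligase of sarcomere proteins, was at 3690, 2303, 2197, 3750 and 2966 in right and 1742, 1227 and 2187 in sham legs (0.80, SE 0.21, adjusted p = 0.00118; adjusted p = 0.0553 without sham replicate 2). Fbxo32 (atrogin-1), the other ligase used as a marker of atrophy, was at 2415, 1587, 1235, 2168 and 1357 against 1116, 709.9 and 1377 and did not pass (0.72, SE 0.32, adjusted p = 0.0731). The groups overlapped for Fbxo32 and not for Trim63, and right replicates 1 and 4 were the highest for both. Klhl40, which stabilises thin filament proteins, rose by 0.77 (SE 0.16, adjusted p = 3.43e-05), and the related adaptor Kbtbd13 fell by 0.97 (SE 0.16, adjusted p = 4.64e-07). Of 27 autophagy genes 7 rose and 6 fell (median -0.08), beside 19.6% and 15.5% of all genes. Map1lc3b, which coats autophagosomes, rose by 0.98 (SE 0.14, adjusted p = 4.03e-09) and the cargo receptor Sqstm1 by 0.73 (SE 0.15, adjusted p = 5.98e-05). Gabarapl2, a relative of Map1lc3b, fell by 0.86 (SE 0.09, adjusted p = 2.62e-13). Without right replicate 1, or without sham replicate 1 or 2, the number that rose was 4. Map1lc3b was higher than sham in the left legs too (0.69, SE 0.14, adjusted p = 0.00027). Of 13 calpain and caspase genes 7 rose and 2 fell. The inflammasome caspase Casp1 rose by 2.197 (SE 0.35, adjusted p = 1.16e-07), Casp4 by 1.24 and Casp8, of the death receptor pathway, by 1.17, while Capn3, the calpain of muscle fibres, fell by 1.05 and calpastatin (Cast), the calpain inhibitor, by 0.39.

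**Figure D3:**
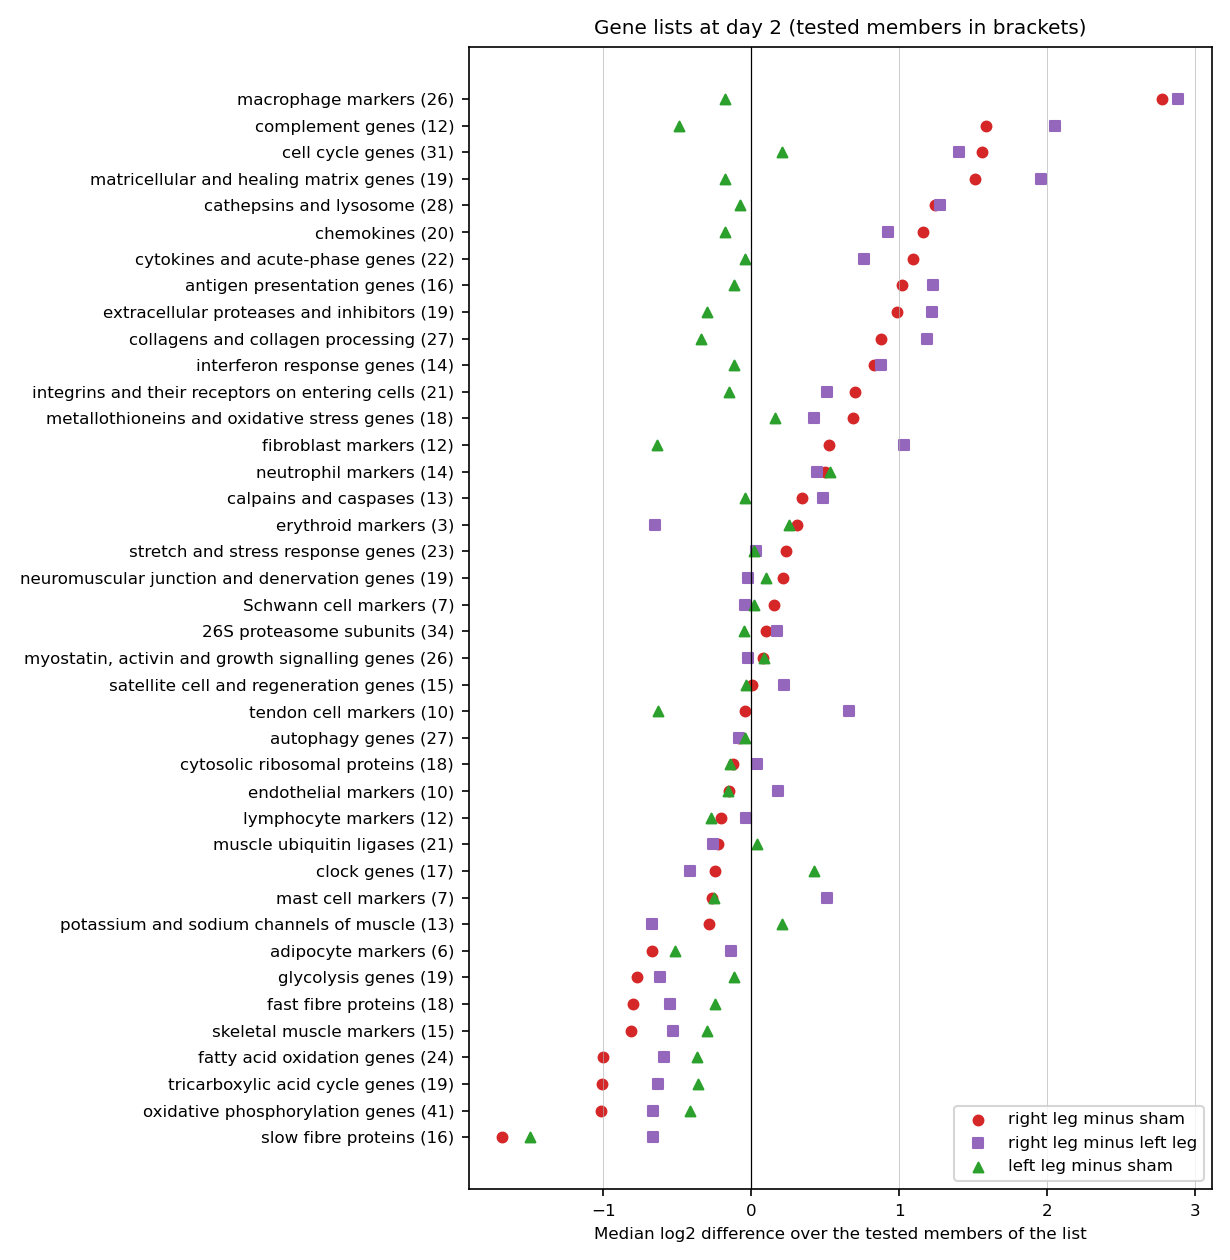
Each row is 1 of the 40 gene lists with its number of tested members in brackets, and the x axis is the median log2 difference over those members for right leg minus sham (red circles), right minus left leg of the same mice (purple squares) and left leg minus sham (green triangles). Macrophage markers lie farthest right in both comparisons of right legs (2.78 and 2.89) with left legs near sham (-0.17), whereas slow fibre proteins lie farthest left against sham in right (-1.68) and left legs (-1.49).

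Genes of new and remodelled matrix were higher in right legs. Of 27 collagens and collagen-processing enzymes 19 rose and 0 fell (median 0.88), and of 19 matricellular and healing matrix genes 14 rose and 0 fell (median 1.51). Among all genes 19.6% rose and 15.5% fell. Periostin (Postn), a matricellular protein of healing tissue, was at 2975, 3349, 4167, 2044 and 2619 in right and 213, 180.5 and 110.2 in sham legs, a difference of 4.15 (SE 0.51, adjusted p = 4.78e-11). Cthrc1, a secreted protein of activated fibroblasts, was at 236, 259, 421, 129.6 and 269 against 14.1, 8.99 and 4.83 (4.30, SE 0.59, adjusted p = 1.8e-09). The collagen cross-linking enzyme Lox had signals of 865 to 1734 against 132 to 246 (2.73, SE 0.33, adjusted p = 3.49e-11), and the connective tissue growth factor Ccn2 of 1081 to 1915 against 237 to 309 (2.44, SE 0.33, adjusted p = 1.01e-09). Right legs lay above sham legs in every array for these 4 genes. The hyaluronan receptor Cd44, tenascin-C (Tnc) and fibronectin (Fn1) rose by 2.64, 2.15 and 1.55. Among the collagens themselves Col8a1 rose by 2.64 (SE 0.38, adjusted p = 6.78e-09) and Col5a2 by 2.22 (SE 0.31, adjusted p = 2.99e-09). Of the main fibrillar chains, Col3a1 was at 6891, 8173, 8269, 8143 and 6458 in right and 5654, 4390 and 2187 in sham legs (0.99, SE 0.25, adjusted p = 0.00084; adjusted p = 0.0994 without sham replicate 3). Col1a1 was at 3811, 3991, 5932, 2963 and 4034 against 4039, 2216 and 1179 and did not pass (0.88, SE 0.40, adjusted p = 0.0787). Sham replicate 1 lay within the right legs for Col1a1. Col1a2 (0.23), Col4a1 (0.28) and Col4a2 (-0.10) did not pass. Of 19 extracellular proteases and inhibitors 12 rose and 1 fell (median 0.99). The metalloproteinase inhibitor Timp1 was at 444, 338, 655, 228 and 487 in right and 64.2, 53.1 and 26.6 in sham legs (3.06, SE 0.54, adjusted p = 1.49e-06). The membrane proteases Adam8 and Adam12 rose by 2.71 and 2.61, and the collagenase Mmp13 by 2.22, while Mmp9 stood at -0.27.

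Markers of fibroblasts and tendon cells changed unevenly, and which cells carried the matrix transcripts was not measured. Of 12 fibroblast markers 4 rose and 1 fell (median 0.52); after quantile normalisation 7 rose. Mfap5 rose by 1.11 (SE 0.28, adjusted p = 0.000846) and Fap, a protease of activated fibroblasts, by 1.03 (SE 0.22, adjusted p = 8.05e-05), while Pdgfra (0.38) and Dcn (-0.32) did not pass. Of 10 tendon cell markers 2 rose and 1 fell (median -0.04), beside 19.6% and 15.5% of all genes. With only the groups compared in the fit 3 fell. The cartilage and tendon matrix protein Cilp was at 2448, 2887, 3031, 2140 and 2264 in right and 332, 373 and 310.2 in sham legs (2.89, SE 0.28, adjusted p = 3.63e-15). Thbs4 rose by 1.34 (SE 0.19, adjusted p = 6.5e-09), and the matrix protein Chad fell by 1.45 (SE 0.47, adjusted p = 0.0103). The tendon-defining genes Scx (-0.05), Mkx (-0.18) and Tnmd (-0.97, SE 0.41, adjusted p = 0.0547) did not pass. Tnmd was at 202, 389, 370.1, 137 and 148 in right, 642, 433 and 322 in sham and 44.5 to 137 in left legs, so that the left legs were the lowest.

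Genes of dividing cells were higher in right legs. Of 31 cell cycle genes 23 rose and 0 fell (median 1.56), and the list mean relative to naive muscle was 1.47 to 1.76 in right and -0.18 to 0.08 in sham legs. The mitotic kinase Cdk1 was at 76.7, 87.5, 117, 76.95 and 90.8 in right and 0.945, 1.54 and 0.656 in sham legs (4.21, SE 0.56, adjusted p = 5.31e-10), all 3 sham signals being below the 40th percentile of their array. Mki67, the proliferation antigen, was at 149, 176, 177, 130.1 and 169 against 12.7, 12.5 and 4.46 (3.63, SE 0.44, adjusted p = 3.12e-11), and survivin (Birc5) at 66.7 to 87.4 against 0.624 to 1.43 (4.02, SE 0.52, adjusted p = 2.19e-10). The right legs formed a tight group in each of the 3 genes, while 1 left leg reached 108.5 for Mki67 and 37.0 for Birc5. Top2a, Ccnb2, Ccna2 and Plk1 of the G2 phase and mitosis rose by 2.96, 2.92, 2.45 and 1.64, and Rrm2 and the replication helicase subunits Mcm2, Mcm3, Mcm4, Mcm5, Mcm6 and Mcm7 rose by 1.10 to 2.91. The genes Aurka (0.06), Rrm1 (-0.03), Ccne2 (-0.14) and Bub1b (-0.47) did not pass. Which of the dividing cells of the tissue carried these transcripts was not measured.

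Promoters of cell cycle genes are known for CCAAT boxes, bound by NF-Y, and for the cell cycle homology region (CHR), bound by the DREAM and MuvB complexes. RefSeq promoter windows (GRCm38.p6, the 250 bases before the annotated start) were found for 18 of the 23 cell cycle genes that rose, 20 windows in all. The CHR letters TTTGAA, searched on both strands, occurred in 7 of the 20 windows (35.0%) and in 16.0% of all 32851 windows. CCAAT, searched on both strands, occurred in 17 of the 20 (85.0%) and in 33.8% of all. Both occurred together in 35.0% and 5.55%. A match of letters is a description and not a site. The cell cycle genes that did not rise were not counted apart, so these shares describe cell cycle promoters and not the rise. The windows of 3 of these genes that hold both motifs are printed 5' to 3' on the strand of the gene, chosen because these genes mark mitosis and proliferation. Capitals mark the CHR letters and the CCAAT motif, which reads ATTGG where it lies on the opposite strand. They lie at chr10:69352913-69353162 for Cdk1, chr9:70421555-70421804 for Ccnb2 and chr7:135716380-135716629 for Mki67, each on the minus strand just upstream of the annotated first exon.
Cdk1: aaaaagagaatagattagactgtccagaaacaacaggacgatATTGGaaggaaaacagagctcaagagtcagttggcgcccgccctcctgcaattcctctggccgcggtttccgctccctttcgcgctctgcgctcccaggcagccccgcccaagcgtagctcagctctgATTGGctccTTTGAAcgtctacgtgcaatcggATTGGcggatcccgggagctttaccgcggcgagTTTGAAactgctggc
Ccnb2: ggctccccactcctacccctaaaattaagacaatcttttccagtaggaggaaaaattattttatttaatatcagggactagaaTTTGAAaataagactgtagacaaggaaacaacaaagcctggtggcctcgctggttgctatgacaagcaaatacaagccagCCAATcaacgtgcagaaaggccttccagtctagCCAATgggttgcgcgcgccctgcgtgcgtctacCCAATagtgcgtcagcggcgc
Mki67: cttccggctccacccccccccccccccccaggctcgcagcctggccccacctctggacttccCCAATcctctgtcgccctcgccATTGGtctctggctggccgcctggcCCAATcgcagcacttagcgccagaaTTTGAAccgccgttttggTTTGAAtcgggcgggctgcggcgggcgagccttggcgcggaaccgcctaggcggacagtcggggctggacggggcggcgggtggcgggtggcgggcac
In the Cdk1 window the CHR letters lay at bases -71 to -66 and -15 to -10 before the start, with CCAAT on the opposite strand at -208 to -204, -80 to -76 and -48 to -44. In the Ccnb2 window 3 CCAAT motifs began at -87, -54 and -21, with the CHR letters farther upstream at -167. In the Mki67 window the CHR letters began at -116 and -98, downstream of the CCAAT motifs at -188, -166 (opposite strand) and -141. The 3 genes rose by 4.21, 2.92 and 3.63.

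Metallothioneins and genes of oxidative stress were higher as well. Of 18 members 12 rose and 3 fell (median 0.69); after quantile normalisation 1 fell. The metal-binding protein Mt2 was at 6042, 2378, 4475, 5505 and 5837 in right and 167, 470.2 and 198 in sham legs (4.18, SE 0.61, adjusted p = 1.02e-08). Mt1 was at 6250, 1922, 3479, 4129 and 5371 against 312, 711 and 279.9 (3.29, SE 0.60, adjusted p = 3.27e-06). Right replicate 2 was the lowest right leg for both and still above all sham legs. Haem oxygenase Hmox1, which degrades haem, was at 178, 149.8, 544, 169 and 571 in right and 23.3, 66.2 and 12.2 in sham legs (3.12, SE 0.49, adjusted p = 7.81e-08), with right replicates 3 and 5 far above the other 3. Extracellular superoxide dismutase Sod3 rose by 2.18 and catalase (Cat) by 1.06, while the mitochondrial Sod2 fell by 1.61 and the cytosolic Sod1 by 0.47. Of 23 stretch and stress response genes 6 rose and 3 fell (median 0.24), beside 19.6% and 15.5% of all genes. The chaperone Hsp90aa1 rose by 1.43 (SE 0.23, adjusted p = 1.29e-07), with the same sign in 2 of 3 other probe sets, and the repair protein Xirp1 by 1.15 (SE 0.31, adjusted p = 0.00189), which had an adjusted p of 0.083 against naive legs. The chaperone Hspa1b rose by 1.31 (SE 0.49, adjusted p = 0.0277). Hspa1b had an adjusted p of 0.173 without sham replicate 1, of 0.0773 without sham replicate 3 and of 0.0596 without right replicate 2. Without sham replicate 1 the number that rose was 3. The load-sensitive sarcomere genes Csrp3 (0.04, SE 0.52, adjusted p = 0.962) and Ankrd2 (-0.56, SE 0.41, adjusted p = 0.324) overlapped between the groups and did not pass; Csrp3 was at 1671, 761, 1042, 808 and 1431 in right and 597, 1064 and 1852 in sham legs.

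Among 26 genes of myostatin, activin and growth signalling 8 rose and 6 fell (median 0.08), beside 19.6% and 15.5% of all genes. Without sham replicate 1, or without sham replicate 3, 3 fell. Ddit4 (REDD1), an inhibitor of the growth kinase mTORC1, had the largest difference (3.07, SE 0.54, adjusted p = 1.71e-06). Eif4ebp1, a repressor of translation that mTORC1 inactivates, was at 1708, 1599, 1632, 1514 and 1566 in right and 673, 648 and 691 in sham legs (1.25, SE 0.19, adjusted p = 5.73e-08). Fstl3, which binds myostatin and activin, rose by 1.30 (SE 0.35, adjusted p = 0.00177); against naive legs Fstl3 had an adjusted p of 0.158. The insulin receptor substrates Irs1 and Irs2 fell by 0.70 and 0.63, while Igf1 (0.16), the main muscle growth factor, and Foxo1 (0.34) and Foxo3 (-0.12), which switch on atrophy ligases, did not pass.

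Genes of muscle differentiation changed in part. Of 15 satellite cell and regeneration genes 5 rose and 2 fell (median 0.01); without sham replicate 1, or without sham replicate 3, 3 rose. Myogenin (Myog), the transcription factor of differentiating myoblasts and of denervated fibres, was at 302, 219.7, 288, 318 and 243 in right and 58.7, 83.3 and 48.0 in sham legs (2.07, SE 0.23, adjusted p = 2.1e-12), with no overlap. The fusion proteins myomaker (Mymk) and myomixer (Mymx) rose by 2.24 (SE 0.53, adjusted p = 0.000347) and 1.20, and Myod1 by 0.69. Mymk was dim, at 38.4, 16.9, 28.7, 49.7 and 14.5 against 10.2, 0.444 and 0.537. The stem cell factor Pax7 (-0.20, SE 0.31, adjusted p = 0.673), Myf5 (-0.58) and the embryonic myosin Myh3 (-0.02, SE 0.51, adjusted p = 0.986) did not pass. Cardiac actin Actc1, which is expressed in developing and regenerating muscle, was lower: 941, 1354, 1157, 1109 and 549 in right and 5627, 12100 and 2294 in sham legs (difference -2.46, SE 0.47, adjusted p = 7.16e-06). Of 19 neuromuscular junction and denervation genes 4 rose and 2 fell (median 0.22), while 19.6% of all genes rose and 15.5% fell. After quantile normalisation 2 rose, and without right replicate 1, 2 rose. Runx1, a factor induced by denervation and also expressed in blood cells, rose by 2.06 (SE 0.39, adjusted p = 8.96e-06), with the same sign in 5 of 5 other probe sets. The repressor Dach2 fell by 1.45 (SE 0.26, adjusted p = 1.71e-06). The receptor subunit Chrna1, which rises on denervation, was at 281, 211, 221, 287 and 235 against 203, 212 and 215 (0.22, SE 0.21, adjusted p = 0.478) and did not pass.

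Slow fibre proteins had the lowest median of the 40 lists. Of 16 slow fibre proteins 12 were lower in right legs and 0 higher, with a median of -1.68. The slow myosin light chain Myl2 was at 349, 182, 216, 174 and 178 in right and 5091, 5540 and 4824 in sham legs, a difference of -4.58 (SE 0.31, adjusted p = 1.9e-23) and a ratio of mean signals of 23.4 in favour of sham. The slow myosin heavy chain Myh7 was at 478, 39.9, 75.3, 168 and 152 against 3747, 2981 and 2504 (-4.49, SE 0.48, adjusted p = 2.5e-13), with right replicate 1 the highest right leg. Slow troponin C (Tnnc1) was at 424, 73.2, 160.4, 178 and 219.8 against 3123, 3443 and 2782 (-4.06, SE 0.41, adjusted p = 2.18e-14). These 3 genes were lower in every right leg than in any sham leg. Slow troponin I (Tnni1) was at 259, 48.4, 87.1, 145 and 111 against 1119, 1291 and 919.5 (-3.24, SE 0.44, adjusted p = 1.13e-09). Slow troponin T (Tnnt1) was at 388, 69.0, 249, 226 and 149 against 1954, 2167 and 1595 (-3.31, SE 0.44, adjusted p = 6.45e-10). In all 5 genes right replicate 1 was the highest and right replicate 2 the lowest of the right legs, apart from Myl2, for which the lowest was replicate 4. The slow tropomyosin Tpm3 differed by -4.33 (SE 0.45, adjusted p = 4.99e-14), but 1 of the 4 other Tpm3 probe sets had the same sign, and the mean of its probe sets differed by -0.72 (adjusted p = 0.0224, limma). Myl3 and the slow calcium pump Atp2a2 fell by 3.38 and 1.95. Phospholamban (Pln, 0.41), the slow calsequestrin Casq2 (0.07), Myl6b (0.55) and sarcolipin (Sln, -0.26) did not pass. The left legs of the same mice were also below sham for these genes: Tnnc1 by 3.05 (SE 0.41, adjusted p = 6.76e-08), Tpm3 by 3.24, Tnni1 and Tnnt1 by 2.60 each, Myh7 by 2.12 and Myl2 by 1.57. Relative to naive muscle the mean over the 16 slow fibre proteins was -2.79 to -1.60 in right, -1.94 to -0.55 in left and -0.34 to 0.00 in sham legs. Right against left legs of the same mice, the median was -0.67, with 8 lower and 1 higher; Tnni1 (-0.64, SE 0.36, adjusted p = 0.165) and Tnnt1 (-0.71, SE 0.36, adjusted p = 0.124) did not pass there. The difference of both legs from sham cannot be told apart from a difference between the cohorts.

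**Figure D4:**
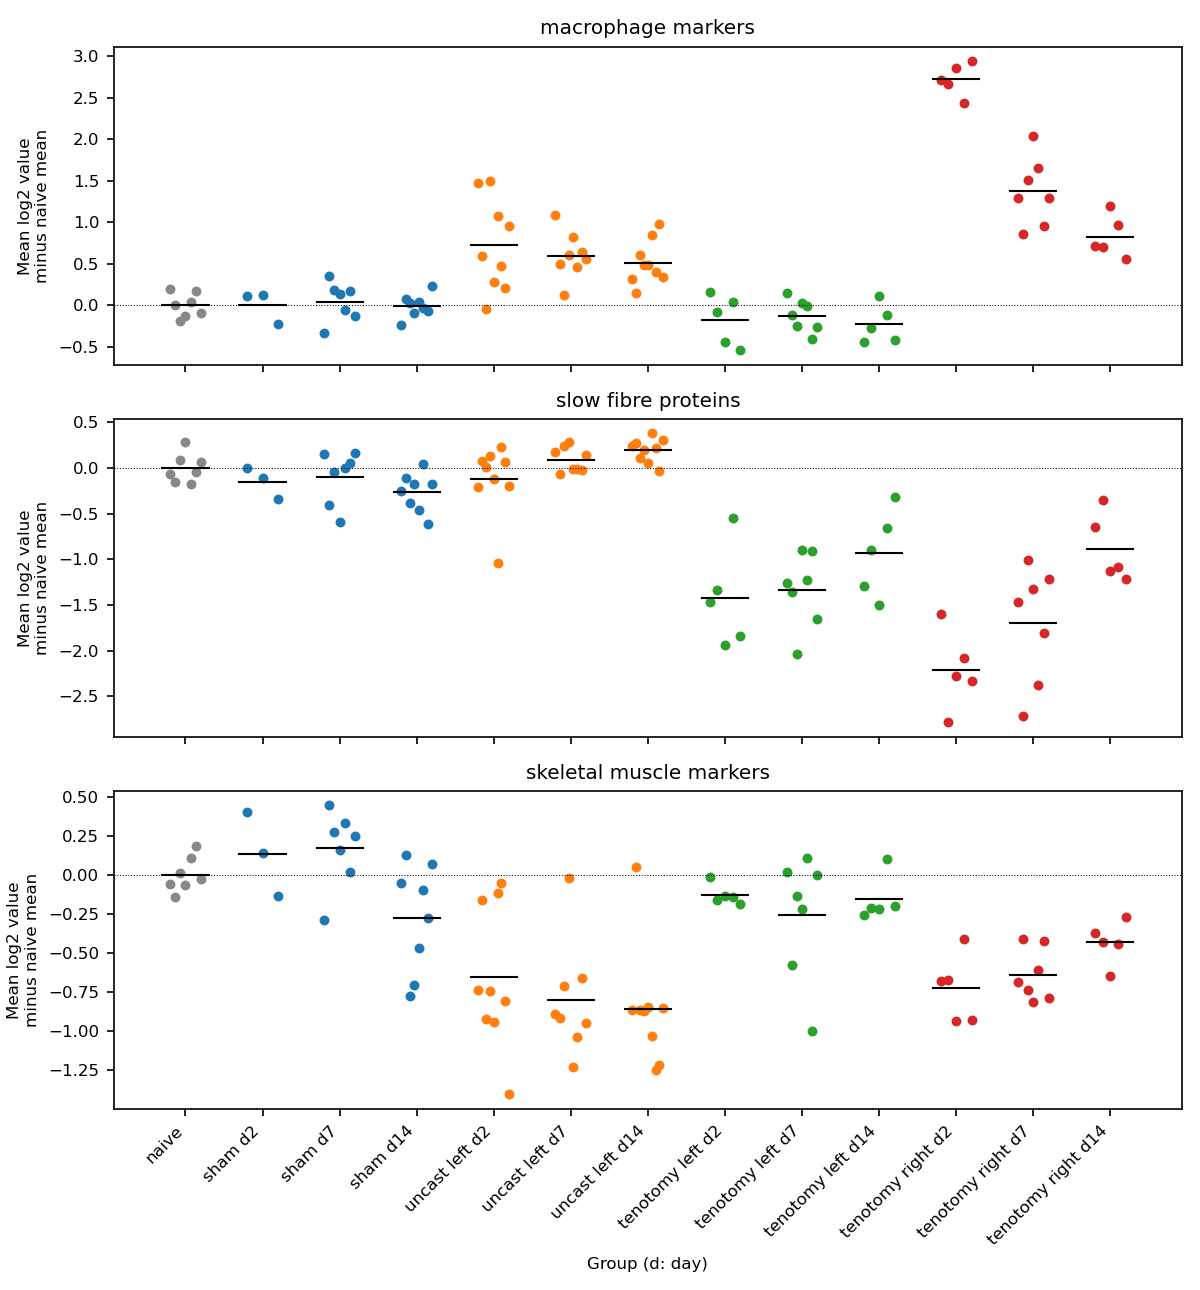
Each point is 1 array, the y axis is its mean log2 value over the list minus the mean of naive arrays, bars are group means, and d2, d7 and d14 are the days. For macrophage markers the 5 right legs at day 2 (2.43 to 2.94) lie above all other arrays shown; for slow fibre proteins at day 2 left (-1.94 to -0.55) and right legs (-2.79 to -1.60) of the tenotomy cohort lie below sham (-0.34 to 0.00); for skeletal muscle markers at day 2 right legs (-0.94 to -0.41) lie below sham (-0.14 to 0.40), a difference whose median is -0.02 after quantile normalisation.

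The bright transcripts of fast fibres were lower too, and how many passed depended on the scaling. Of 18 fast fibre proteins 16 fell and 0 rose (median -0.80), and all 15 skeletal muscle markers fell (median -0.81). The groups did not overlap in any of these 15 markers, and in 32.2% of all genes. The fast myosin heavy chain Myh4 was at 11200, 11400, 10200, 14400 and 9134 in right and 24500, 19600 and 15500 in sham legs (-0.81, SE 0.28, adjusted p = 0.0154). Skeletal actin Acta1 was at 11000, 11000, 10200, 13800 and 9391 against 23500, 18900 and 14400 (-0.76, SE 0.28, adjusted p = 0.0234), and muscle creatine kinase Ckm at 8697 to 13200 against 14400 to 23000 (-0.86, SE 0.28, adjusted p = 0.0111). After quantile normalisation the medians of both lists were -0.02, 4 fast fibre proteins and 3 muscle markers fell, and Myh4, Acta1 and Ckm stood at -0.04, 0.05 and -0.07 with adjusted p values of 0.72, 0.693 and 0.608. Without sham replicate 1, the brightest sham array for these genes, 7 and 6 fell, and the adjusted p was 0.117 for Myh4, 0.158 for Acta1 and 0.0829 for Ckm. Acta1 also had 0.066 without sham replicate 2 and 0.0531 without right replicate 5. Other members fell under both scalings. Myh2, the myosin of the oxidative fast fibres, was at 7971, 4874, 3320, 7028 and 4917 in right and 18100, 12900 and 12800 in sham legs (-1.42, SE 0.24, adjusted p = 8.89e-07), and differed by -0.74 after quantile normalisation. Myoglobin (Mb), the oxygen store of oxidative fibres, differed by -1.41 (SE 0.22, adjusted p = 1.03e-07), and by -0.69 after quantile normalisation. Calsequestrin Casq1, the calcium store of fast fibres, differed by -1.06 (SE 0.20, adjusted p = 9.96e-06), and by -0.52. The other probe set of Mb had the opposite sign.

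Genes of mitochondrial energy metabolism fell almost as a whole. Of 41 oxidative phosphorylation genes 40 fell and 0 rose (median -1.01; after quantile normalisation 40 fell, median -0.59), of 19 tricarboxylic acid cycle genes 18 fell (median -1.01), and of 24 fatty acid oxidation genes 19 fell (median -0.9995). The complex II subunit Sdhb was at 3390, 3935, 3106, 3450 and 2493 in right and 8970, 9441 and 7615 in sham legs (-1.41, SE 0.15, adjusted p = 1.6e-13). The complex I subunit Ndufv1 was at 1992, 1834, 1627, 1770 and 1419 against 4815, 4731 and 4351 (-1.43, SE 0.12, adjusted p = 3.04e-18). The right legs lay below every sham leg for both genes, and the left legs lay between, at 5227 to 6233 and 2471 to 3466. Uqcrc1 of complex III fell by 1.46, the muscle form Cox7a1 of complex IV by 1.31 and Atp5c1 of the ATP synthase by 1.17, so that all 5 complexes were represented. The cycle enzymes Idh2 and Mdh1 fell by 1.74 and 1.44; 2 of the 4 other probe sets of Mdh1 had the same sign. Fabp3, which carries fatty acids inside the fibre, was at 1484, 1281, 986, 1423 and 1000 in right and 6560, 6254 and 5865 in sham legs, a difference of -2.35 (SE 0.18, adjusted p = 7.18e-20). The electron carrier Etfb and the isomerase Eci1 of beta-oxidation fell by 1.40 (SE 0.10) and 1.30 (SE 0.11). Pdk4, which blocks entry of pyruvate into the cycle, was at 3164, 542, 742, 2100 and 1827 against 913, 2843 and 873 (0.06, SE 0.40, adjusted p = 0.927). The coactivator Ppargc1a, which drives mitochondrial genes, was at 460.5, 348, 313, 690 and 541 against 485, 402 and 465 (0.01, SE 0.23, adjusted p = 0.985). Neither passed, and the right legs spanned the sham values. Of 19 glycolysis genes 15 fell and 1 rose (median -0.77), but 9 fell after quantile normalisation (median -0.23). Gpd1 fell by 1.15, Fbp2 by 1.11 and enolase Eno3 by 1.07, and the hexokinase Hk1 rose by 0.80. The median fall in the 3 mitochondrial lists was larger than in the 15 skeletal muscle markers (-0.81), a difference that was not tested.

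Markers of vessels and fat were lower in part. Of 10 endothelial markers 4 fell and 0 rose (median -0.15), while 15.5% of all genes fell and 19.6% rose. The growth factor receptor Kdr was at 47.8, 59.3, 95.8, 69.1 and 40.3 in right and 229.7, 201 and 209.5 in sham legs (-1.77, SE 0.23, adjusted p = 2.22e-10). Tek, another receptor of endothelial cells, fell by 0.78 and Emcn by 0.58 (adjusted p = 0.0533 without sham replicate 1 and 0.0615 with only the groups compared), while Pecam1 (0.21) and Cdh5 (0.46) did not pass. Without sham replicate 1, 2 fell, and with only the groups compared 2 fell. Of 6 adipocyte markers Fabp4, which endothelial cells also express, and Car3, which muscle also expresses, fell by 0.71 and 0.63; adiponectin (Adipoq) differed by -0.71 and did not pass, ranging from 66.2 to 1587 among right legs. Car3 stood at 0.10 after quantile normalisation and had an adjusted p of 0.129 without sham replicate 1, and Fabp4 had 0.157 after quantile normalisation and 0.253 with the mean of its probe sets (-0.23). Without right replicate 3, 5 adipocyte markers fell. Aqp4, the water channel of fast fibres, was at 14.9, 72.9, 26.6, 46.6 and 37.7 in right and 407, 308 and 309 in sham legs (-3.12, SE 0.33, adjusted p = 9.23e-14). The purine receptor P2ry1 was at 2.65, 2.41, 0.922, 2.18 and 1.30 against 32.5, 44.0 and 30.1 (-2.74, SE 0.43, adjusted p = 1.14e-07). Gnmt, a methyltransferase of one-carbon metabolism, was at 3.19, 3.47, 3.89, 1.49 and 3.50 against 29.9, 46.0 and 36.8 (-2.54, SE 0.49, adjusted p = 1.22e-05).

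The left legs of the same 5 mice and the naive legs are set beside the comparison. Naive mice were numbered together with the sham mice and apart from the tenotomy cohort. Against naive legs, too, cohort and group cannot be told apart for the right legs. Right against left legs, 3329 genes were higher and 2556 lower (20.8% and 15.9%, 36.7% in all), while left legs against sham gave 695 higher and 907 lower (4.34% and 5.66%, 9.99% in all). Left legs against sham gave 810 calls without sham replicate 2. These comparisons share arrays with right against sham and are given side by side. Sham against naive legs gave 0 calls with limma, with 1120 genes at an unadjusted p under 0.05 and a smallest adjusted p of 0.0592, so that 3 sham legs showed no change from naive that passed. For macrophage markers 24 of 26 were higher in right than in left legs (median 2.89) and 0 differed between left and sham legs (median -0.17). Cell cycle genes (24 of 31 higher), lysosome genes (24 of 28) and complement genes (10 of 12) were higher in right than in left legs too, with medians of 1.41, 1.28 and 2.05. Matrix genes had larger medians between the legs than against sham. There 24 of 27 collagen genes were higher in right than in left legs (median 1.19) and 10 of 12 fibroblast markers (median 1.04). Against sham, 5 fibroblast markers and 3 of 10 tendon cell markers were lower in left legs than in sham legs. Tnmd was 2.17 lower in left legs than in sham legs (SE 0.41, adjusted p = 9.49e-05) and 1.20 higher in right than in left legs (SE 0.34, adjusted p = 0.00234). Mitochondrial genes were lower in left legs than in sham legs for 20 of 41 oxidative phosphorylation genes (median -0.41) and lower again in right than in left legs for 41 of 41 (median -0.66). Some genes differed from sham in both legs and did not pass between the legs. The growth inhibitor Ddit4 (REDD1) was at 2225, 296, 624.6, 1629 and 895 in right, 131, 123 and 69.9 in sham and 178 to 2413 in left legs. Right against sham it differed by 3.07 (SE 0.54, adjusted p = 1.71e-06), left against sham by 2.94 (SE 0.54, adjusted p = 7.21e-05) and right against left by 0.13 (SE 0.45, adjusted p = 0.863). Of 17 clock genes 2 rose and 6 fell in right legs (median -0.24), and 5 rose and 3 fell in left legs. Among all genes 19.6% rose and 15.5% fell in right legs. The clock gene Per2 was 1.68 (SE 0.39, adjusted p = 0.000223) higher in right and 2.02 (SE 0.39, adjusted p = 0.000135) higher in left legs, and Per1 1.08 and 1.32. Arntl (Bmal1) was 0.98 and 0.88 lower and Nr1d1 1.35 and 0.77 lower. Against naive instead of sham legs Per2 differed by 0.40 (adjusted p = 0.335); the time of day of tissue collection is not given in the sources used here.

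The difference between right and sham legs was set against the same difference at the later days, with the change tested in the same model. Between days 2 and 7 the difference changed in 886 genes (5.53%; 3.13% higher at day 2 and 2.40% lower). Without sham replicate 1 of day 2 it changed in 577. Between days 2 and 14 it changed in 2048 genes (12.8%; 6.72% higher at day 2 and 6.06% lower). At days 7 and 14 on their own, 41.2% and 35.9% of genes differed between right and sham legs. Macrophage markers were highest at day 2: the median difference from sham was 2.78, 1.28 and 0.82 at days 2, 7 and 14, and 18 of 26 were higher at day 2 than at day 7 and 22 than at day 14. Chil3 went from 4.96 at day 2 to -0.25 at day 7 (change 5.21, SE 1.04, adjusted p = 0.000573). Lysosome genes followed, with 15 of 28 higher and 1 lower at day 2 than at day 7, and so did proteasome subunits, with 19 of 34 higher and 0 lower, their median going from 0.10 at day 2 to -0.30 at day 7. Trim63 stood at 0.80, -0.24 and -0.53 at the 3 days (day 2 minus day 7 1.04, SE 0.26, adjusted p = 0.00618), and Myog at 2.07, 0.66 and 0.94 (day 2 minus day 7 1.41, SE 0.29, adjusted p = 0.000818). Cell cycle genes had medians of 1.56, 0.88 and 0.51; 3 of 31 were higher at day 2 than at day 7 and 16 than at day 14. Collagen genes had medians of 0.88, 1.46 and 1.23 and 0 higher and 2 lower at day 2 than at day 7. Tendon cell markers went from -0.04 at day 2 to 0.93 and 1.497, with 6 of 10 lower at day 2 than at day 14; Tnmd went from -0.97 to 0.73 and 1.29 (day 2 minus day 14 -2.26, SE 0.52, adjusted p = 0.000932). Slow fibre proteins had medians of -1.68, -1.66 and -0.77, with 12 of 16 lower at day 2 than at day 14 and 1 lower than at day 7, Myh7 (change -2.07, SE 0.60, adjusted p = 0.0232). Of the oxidative phosphorylation genes 29 of 41 were lower at day 2 than at day 14 and 3 lower than at day 7.

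**Figure D5:**
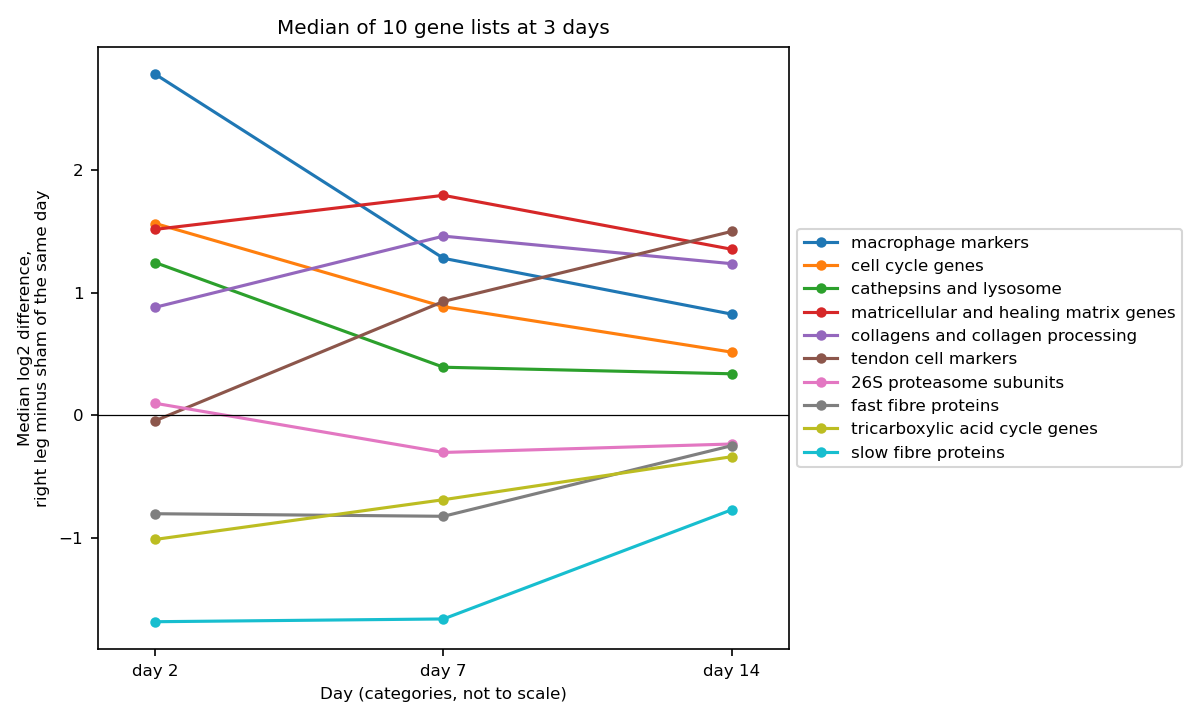
Lines join the median log2 difference, right leg minus sham leg of the same day, over the tested members of 10 gene lists at days 2, 7 and 14 (days as categories, not to scale). Macrophage markers go from 2.78 to 0.82, tendon cell markers from -0.04 to 1.497 and slow fibre proteins from -1.68 to -0.77.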

How the data were processed

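Expression was measured in mouse gastrocnemius muscle with MOE430 2.0 arrays, 111 arrays in 16 groups from 70 animals, of which 41 gave both legs; total RNA (Trizol, then RNeasy) was labelled as biotin cRNA, per the labels' protocols. The deposited values are signal intensities per probe set that the authors obtained with MAS5 in GCOS, per the submitters' processing notes. Software versions and the scaling target are not given in the sources used here. The trimmed mean of the deposited signals was 99.95 to 99.97 in every array, so that all arrays were scaled to about the same level. MAS5 scales each array as a whole, so that a large change in bright transcripts can move all others.

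The deposited intensities were used as log2(signal + 3.98), the pseudocount being the 20th percentile of all values, for the probe set with the highest mean of each gene. Of 45101 probe sets 34958 had 1 gene symbol, 932 several and 9211 none. The gene IDs of 34754 probe sets were found in the RefSeq table (GRCm38.p6). Genes above the 40th percentile of the array in at least 5 arrays were kept (16029 of 18194). limma (version 3.58.1, R 4.3.3) was fitted with a mean per group over all 111 arrays and the animal as a random block (correlation 0.0964), with Benjamini-Hochberg adjustment over all tested genes and a threshold of 0.05; the fit was tested on simulated data. Input was read with data.table (1.17.8). Promoters and plots used pandas 2.3.3, matplotlib 3.10.9 and numpy 2.4.6 under Python 3.11.15. No array was left out. Left and right legs of a mouse share the animal; right and sham legs do not, and replicate numbers did not pair them.

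Named genes were the 10 highest and 10 lowest called genes without overlap, up to 3 called members of each of 40 gene lists, and anchor genes of muscle atrophy and repair; further list members were named after their values were seen. The arrays, genes and lists were chosen with earlier results of these data known. A list is described by its counts and median, without a test. Alternatives were other pseudocounts, filters, scaling, probe set rule, weights, blocks and comparison groups, and each array left out.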

Additional observations from a re-analysis of the deposited data

Results flagged for a closer look

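In 6 of the 136 named genes 1 right leg stood apart from the other 4, by a gap to the nearest leg that took a larger share of the range than chance gives in about 1 in 20 groups, so that 6 of 136 is no more than chance gives. The share was 0.735 for Ctsh, 0.744 for Gnmt, 0.723 for Selplg and 0.728 for Tpm1, all in right replicate 4, 0.794 for Emcn in right replicate 3 and 0.758 for Mb in right replicate 5.

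The right minus sham difference at day 2 minus that at day 7 was tested in the same limma model. Named genes were mostly chosen by their day 2 difference in the same arrays, so their share cannot be compared with that of all genes. The day 2 minus day 7 change passed in 38 of the 136 named genes and in 5.53% of all genes. On the log2 scale, for macrophage, other immune and extracellular protease genes it was 2.69 (Mpeg1), 2.59 (Cd68), 5.21 (Chil3), 2.76 (Gpnmb), 1.68 (Lgals3), 1.58 (Ccr2), 1.93 (Pirb), 1.57 (Itgam), 1.75 (Itgb2), 1.32 (Selplg), 1.25 (C1qa), 1.53 (C1qb), 2.05 (C3ar1), 1.74 (Adam8) and -1.67 (Cd4). For lysosome, proteasome and autophagy genes and ligases it was 1.66 (Ctss), 0.97 (Ctsh), 1.62 (Lgmn), 0.59 (Sqstm1), 0.60 (Psma7), 0.68 (Psmd11), 0.64 (Psmd3), 1.04 (Trim63) and 0.70 (Klhl40). For genes of the cell cycle, muscle differentiation, matrix and ribosome it was 2.41 (Cdk1), 1.41 (Myog) and -1.70 (Tnmd). For stress, growth and clock genes it was 2.02 (Hmox1), 1.91 (Xirp1), 1.89 (Ankrd2), 2.21 (Ddit4) and 1.22 (Eif4ebp1). Of the slow and fast fibre proteins it was -2.07 for Myh7. For energy metabolism genes it was -0.98 (Fabp3), -0.68 (Etfb) and -0.44 (Eci1). For genes of vessels, channels and other functions it was -1.05 (Kdr) and -1.48 (Aqp4).

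Subject to the same choice of genes, the day 2 difference minus the day 14 difference passed in 67 of the 136 and in 12.8% of all genes. On the log2 scale, for macrophage, other immune, caspase, extracellular protease and matrix receptor genes it was 3.42 (Mpeg1), 3.13 (Cd68), 4.88 (Chil3), 2.84 (Gpnmb), 2.35 (Lgals3), 2.56 (Ccr2), 3.62 (Pirb), 2.16 (Itgam), 2.35 (Itgb2), 1.42 (Selplg), 2.10 (C1qa), 2.33 (C1qb), 2.27 (C3ar1), 2.09 (Adam8), 3.99 (Lcn2), 2.24 (Ccl2), 2.26 (Ccl7), 1.81 (Casp1), 1.39 (Oas1a), 1.19 (Cd44) and 2.12 (Socs3). For lysosome, proteasome and autophagy genes and ligases it was 2.54 (Ctss), 1.63 (Ctsh), 1.82 (Lgmn), 0.57 (Sqstm1), 0.95 (Psma7), 0.46 (Psmd3) and 1.33 (Trim63). For genes of the cell cycle, muscle differentiation, matrix and ribosome it was 3.05 (Cdk1), 2.42 (Birc5), 2.83 (Mki67), 1.13 (Myog), 1.93 (Mymk), 1.36 (Lox), 0.58 (Rps6), 0.93 (Rpl14) and -2.26 (Tnmd). For stress, growth and clock genes it was 2.78 (Mt1), 2.91 (Mt2), 2.21 (Hmox1), 1.10 (Hsp90aa1), 1.35 (Eif4ebp1), -1.42 (Per2) and -1.51 (Dbp). For slow and fast fibre proteins it was -3.39 (Myh7), -2.34 (Myl2), -1.30 (Myl3), -1.92 (Tnnc1), -1.65 (Tnni1), -2.53 (Tnnt1), -2.34 (Tpm3), -1.43 (Myh2), -1.04 (Mb) and -0.73 (Casq1). For energy metabolism genes it was -0.89 (Sdhb), -0.75 (Ndufv1), -0.70 (Uqcrc1), -1.14 (Idh2), -0.96 (Mdh1), -1.16 (Fabp3), -1.02 (Etfb) and -0.65 (Eci1). For genes of vessels, channels and other functions it was -1.26 (Kdr), -0.92 (Clcn1), -0.61 (Kcna7), -1.54 (Aqp4) and -2.31 (Gnmt). Sham and right legs of the later days come from other mice.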

How the results depend on the processing

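Of the 122 named genes that passed, 100 kept their direction and their side of the threshold under every alternative run, 22 lost the call in at least 1 of them and 3 changed sign in at least 1. Right against sham gave 5613 calls, 5444 after quantile normalisation (2608 higher, 2836 lower; 3134 and 2479 without it), 4829 with only the groups compared, and 4740 to 5577 with 1 array left out; with the replicate number as a block in a fit of the 8 arrays it gave 3625 (2098 higher, 1527 lower). With that block the adjusted p was 0.11 for Tek, 0.213 for Emcn, 0.176 for Fabp4, 0.171 for Cd4, 0.122 for Mcpt4, 0.0644 for Mmp8 and 0.053 for Il6. With only the groups compared Mcpt4 had an adjusted p of 0.0956 and Cd4 of 0.0538. Same-numbered right and sham legs did not deviate together (correlations 9.01e-05, 0.0437 and -0.0493), so the numbers do not pair them. Left against sham gave 1053 with only the groups compared and 810 to 1505 with 1 array left out; right against left gave 5260 to 5814. Sham against naive gave 3 with a pseudocount of 1, 1 with the stricter filter, 1 with array weights, 5 with only the groups compared and 0 to 3 with 1 array left out. The day 2 minus day 7 change gave 367 with only the groups compared and 577 to 974 with 1 array left out, and that of day 14 1583 to 2133. Signs changed after quantile normalisation for Acta1 (0.0465), Car3 (0.10) and Rps2 (0.0068). With the replicate block they changed for Dbp (0.10), Pdk4 (-0.28) and Ppargc1a (-0.28), and with the mean of probe sets for Dbp (0.0023). Against all 18 sham arrays they changed for Csrp3 (-0.31), Dbp (0.39), Myh3 (0.12), Pdk4 (-0.41) and Ppargc1a (-0.18). Against naive arrays they changed for Chrna1 (-0.0124), Csrp3 (-0.63), Myh3 (0.27), Pdk4 (-0.58), Ppargc1a (-0.37) and S100a9 (-0.42). With 1 array left out the values ran from -0.36 to 0.45 for Csrp3, -0.24 to 0.23 for Myh3, -0.23 to 0.62 for Pdk4 and -0.14 to 0.14 for Ppargc1a. Of the genes whose sign changed, Acta1, Car3 and Rps2 had passed the test, and the cause was not tested. Genes near background, such as Il6 and Mmp8, have signals too low for a firm size.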

Other observations

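Gene groups not yet described were ion channels, ribosomal proteins, and markers of Schwann and erythroid cells; of all genes tested, 19.6% were higher and 15.5% lower. Of 13 ion channels of muscle 3 fell and 0 rose (5 fell after quantile normalisation). The potassium channel Kcna7 fell by 1.23 (SE 0.17, adjusted p = 1.01e-09, limma), the potassium channel Kcnc1 by 0.82, with the same sign in 2 of 3 other probe sets, and the chloride channel Clcn1, which keeps the fibre membrane stable, by 0.76. Of 18 cytosolic ribosomal proteins 3 rose and 4 fell (median -0.12), and after quantile normalisation 10 rose and 0 fell (median 0.25); without sham replicate 2, 1 fell, and without sham replicate 3, 1 rose. The 7 Schwann cell markers lay between -0.23 (Cdh19) and 0.45 (the myelin gene Pmp22), and the 3 erythroid markers between -1.09 (the haem synthesis enzyme Alas2) and 0.54 (the globin Hba-a1), and did not pass.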
